A study of Mus musculus with 42 samples.

Results

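Livers of pubertal mice fed the high-fat diet (HFD) were compared at 2 times of the light phase, 8 h after lights on (ZT 8) and at lights on (ZT 0). Members were the 6 of 42 libraries whose sample records give the HFD with either time point, which were 3 libraries at ZT 8 and 3 at ZT 0. Mice of both groups were female C57BL/6NHsd, were fed a modified AIN93G diet with 45% of energy from soybean oil for 3 weeks after weaning at 3 weeks of age, and were thus 6 weeks old. They shared group housing, free access to food, and a cycle of 12 h of light and 12 h of darkness with lights on at ZT 0. Where the control diet is named below, it is AIN93G with 16% of energy from soybean oil, fed to mice of the same strain, sex, and age under the same conditions. Each library was the liver of 1 mouse, so that each time point holds different mice and none was followed from ZT 0 to ZT 8. Soybean oil was the fat of both diets and only females of 1 strain and age were used, which limits the groups as a model.

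Zeitgeber time (ZT) counts hours from lights on, and ZT 8 lies in the rest phase of the mouse. The liver clock is a transcriptional feedback loop in which BMAL1, encoded by *Arntl*, pairs with CLOCK or NPAS2 and binds E-box sequences in the promoters of its targets. The targets include the period and cryptochrome genes, whose proteins inhibit the activators, and the REV-ERB receptors (*Nr1d1* and *Nr1d2*), which compete with ROR receptors at ROR elements and repress *Arntl* and *Npas2*. DBP, TEF, and HLF activate and NFIL3 represses through a further sequence, the D-box, and carry the rhythm to genes of liver metabolism.

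Promoters of 6 clock genes are shown, because these had the largest changes in each direction among the members of the clock lists: *Dbp*, *Per3*, and *Ciart*, which were higher at ZT 8, and *Npas2*, *Arntl*, and *Nfil3*, which were lower. Each runs from 250 bases before to 50 bases after a RefSeq start in build GRCm38.p6, 5′ to 3′ on the strand of the gene. They lie at chr7:45704997-45705296 (*Dbp*, + strand), chr4:151044616-151044915 (*Per3*, - strand), chr3:95882179-95882478 (*Ciart*, - strand), chr1:39194022-39194321 (*Npas2*, + strand), chr7:113207215-113207514 (*Arntl*, + strand, the nearer of 2 RefSeq starts to that in the deposited table), and chr13:52980990-52981289 (*Nfil3*, - strand). Capitals mark the E-box CACGTG, the D-box forms TTATGTAA and TTACGTAA, and the ROR element core TAGGTCA, each searched on both strands.
Dbp: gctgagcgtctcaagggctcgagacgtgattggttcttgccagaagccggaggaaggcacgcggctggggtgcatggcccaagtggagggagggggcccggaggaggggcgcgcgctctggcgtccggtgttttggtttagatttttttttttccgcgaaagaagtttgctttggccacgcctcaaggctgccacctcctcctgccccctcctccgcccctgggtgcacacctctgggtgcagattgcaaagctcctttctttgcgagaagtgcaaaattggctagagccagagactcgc
Per3: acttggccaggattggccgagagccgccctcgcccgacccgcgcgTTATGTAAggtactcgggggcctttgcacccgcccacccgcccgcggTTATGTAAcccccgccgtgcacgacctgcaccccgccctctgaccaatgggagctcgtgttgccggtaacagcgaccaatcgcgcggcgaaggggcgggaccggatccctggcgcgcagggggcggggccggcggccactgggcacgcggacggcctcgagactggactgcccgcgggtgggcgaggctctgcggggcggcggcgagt
Ciart: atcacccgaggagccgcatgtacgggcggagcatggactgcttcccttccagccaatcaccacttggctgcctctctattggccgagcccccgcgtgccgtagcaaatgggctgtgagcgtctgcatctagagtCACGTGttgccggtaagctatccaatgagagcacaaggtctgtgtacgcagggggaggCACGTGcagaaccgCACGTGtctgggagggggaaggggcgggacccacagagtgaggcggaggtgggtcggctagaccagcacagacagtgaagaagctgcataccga
Npas2: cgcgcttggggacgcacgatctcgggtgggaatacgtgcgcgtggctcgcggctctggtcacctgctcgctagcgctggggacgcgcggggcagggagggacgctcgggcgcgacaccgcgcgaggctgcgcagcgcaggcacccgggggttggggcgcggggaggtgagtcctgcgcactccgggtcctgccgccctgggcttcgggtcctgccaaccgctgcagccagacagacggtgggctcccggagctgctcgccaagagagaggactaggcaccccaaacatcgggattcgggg
Arntl: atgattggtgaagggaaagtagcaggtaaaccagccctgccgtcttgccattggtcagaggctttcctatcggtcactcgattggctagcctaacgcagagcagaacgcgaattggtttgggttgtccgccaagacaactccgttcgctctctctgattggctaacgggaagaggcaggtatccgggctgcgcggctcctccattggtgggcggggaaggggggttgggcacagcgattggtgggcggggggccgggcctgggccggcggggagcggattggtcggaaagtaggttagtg
Nfil3: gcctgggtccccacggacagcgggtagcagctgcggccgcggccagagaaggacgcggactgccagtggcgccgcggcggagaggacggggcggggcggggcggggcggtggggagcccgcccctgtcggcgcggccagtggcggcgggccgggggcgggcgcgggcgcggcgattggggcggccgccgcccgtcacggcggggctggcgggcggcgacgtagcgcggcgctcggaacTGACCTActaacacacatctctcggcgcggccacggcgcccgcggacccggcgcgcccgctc

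The *Ciart* window held 3 E-boxes, 116, 58, and 44 bases before the start. The *Per3* window held TTATGTAA at 205 and 158 bases before the start, and the *Nfil3* window held the ROR element core, on the opposite strand, 12 bases before it. The *Dbp*, *Npas2*, and *Arntl* windows shown held none of these letters, and the other *Arntl* start had the ROR element core 30 bases after it. Of the 18 clock list members tested, 15 matched a RefSeq promoter, and 4 of the 15 (26.7%) held an E-box. TTATGTAA was in 1 of the 15 (6.67%), the ROR element core in 2 (13.3%), and TTACGTAA in none. Counted by gene in the same way, the shares among tested genes were 11.7% for the E-box, 0.71% and 0.204% for the D-box forms with T and with C, and 2.51% for the ROR element core, but only 9300 of the 12091 tested genes had a promoter in the table. Among all 32851 windows in the table, genes not tested included, the shares were 7.15%, 0.938%, 0.119%, and 2.61%. With 15 promoters, no difference from these shares is claimed. A match describes the letters only. The heat shock element and the glucocorticoid response element were searched too and were in none of the 15.

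Total counts of the 6 libraries had a range of 15123633 to 17857479. Hepatocyte markers summed to 143200 to 161100 CPM (counts per 1000000 counts of the scaled library) at ZT 0 and 140900 to 169800 CPM at ZT 8, and none of the 16 passed the test, so that both groups were liver by these markers. The 5 skeletal muscle markers stood apart: their sum was 8.48, 2.13, and 1.29 CPM at ZT 0 and 38.5, 2.59, and 128 CPM at ZT 8, so that 2 ZT 8 libraries were above all ZT 0 libraries. None of the 5 passed the test after adjustment, and all 5 had an unadjusted p under 0.05. Mitochondrial transcripts took 3.59% to 3.64% of counts at ZT 0 and 3.87% to 5.64% at ZT 8. On the first principal component, with 40.9% of the variance, the ZT 8 mice lay at 28.6, 6.27, and 42.3 and the ZT 0 mice between -28.6 and -24.2, so that the second ZT 8 mouse was nearest to the ZT 0 group. The part of these in the results was not tested. None of the 14 marker lists held a gene that passed. Neutrophil and keratinocyte markers summed to at most 1.54 and 3.57 CPM. Other lists had higher sums. Adipocyte markers summed to 789 to 1657 CPM at ZT 0 and 1249 to 1844 CPM at ZT 8. Kupffer cell markers summed to 459 to 876 CPM at ZT 0 and 359 to 505 CPM at ZT 8. Brown adipocyte markers were at 44.4 CPM in the second ZT 0 mouse and at most 7.57 CPM in the other mice. In whole liver, fewer cells of a type and less RNA per cell cannot be told apart.

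Of 12091 genes tested, 82 rose and 136 fell from ZT 0 to ZT 8 at an adjusted p under 0.05, which is 1.80% in either direction, 0.678% higher, and 1.12% lower. The median absolute log2 fold change was 1.35 among genes that rose (0.68 to 7.63) and 1.27 among those that fell (0.67 to 9.48, the latter a fitted value for *Npas2*, with 1 count at ZT 8). Changes over 4-fold were found for 19 genes that rose and 27 that fell. All 218 had CPM values that did not overlap between the groups, which was so for 21% of all genes tested. The count changed when single mice were left out. It was 182, 92, and 79 without the first, the second, and the third ZT 0 mouse. Without the first and the third ZT 8 mouse it was 111 and 119. Without the second ZT 8 mouse it was 263, and 127 genes rose in place of 82. In each of these fits, every one of the 218 genes that was tested kept its sign. Among the 48 list members that passed, 22 did so whichever 1 of the 6 mice was left out, and the others are named with their adjusted p below. Each such fit has 1 mouse fewer. A median log2 fold change of -0.0041 over all genes tested is the background for the list medians below.

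**Figure D1:**
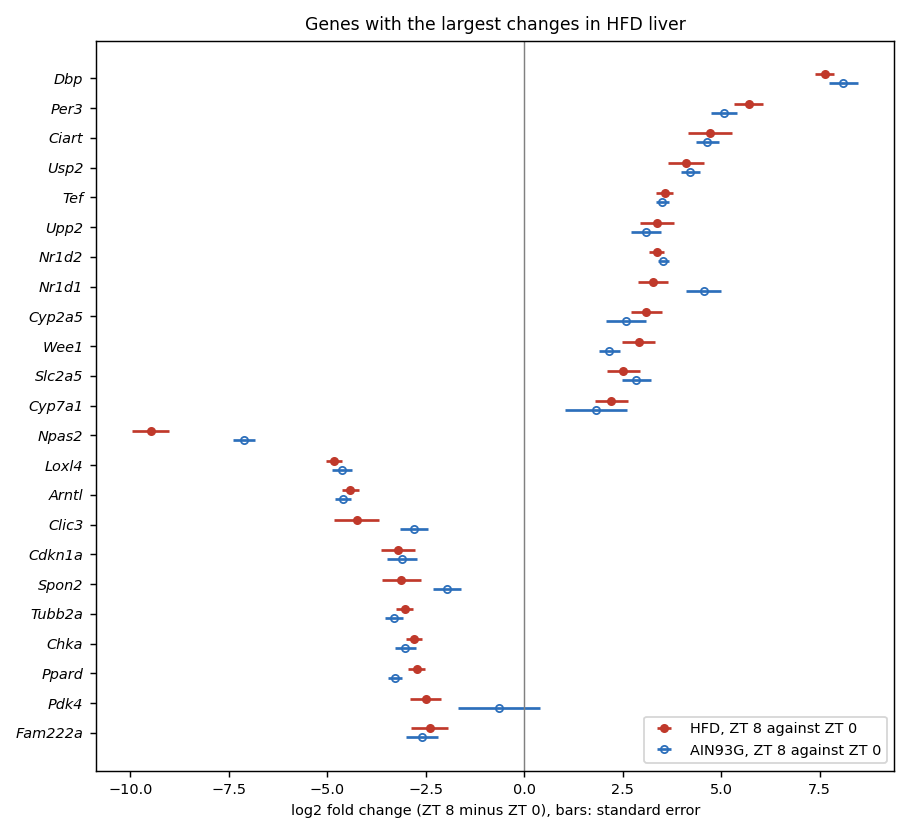
Log2 fold change from ZT 0 to ZT 8 (horizontal axis) of 12 rising and 11 falling genes chosen for their large changes on the HFD, with the standard error as bars, and of the same genes on AIN93G as open points. On the HFD, the rising genes run from 2.21 (*Cyp7a1*) to 7.63 (*Dbp*), and the falling genes from -2.40 (*Fam222a*) to the fitted value of *Npas2*, which rests on 1 count at ZT 8.

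All 3 activators of the clock fell, each in every ZT 8 mouse against every ZT 0 mouse. *Arntl* (chr7:113207465-113314126, mm10) was 45.6, 39.3, and 45.5 CPM in the ZT 0 mice and 2.46, 2.13, and 1.52 CPM in the ZT 8 mice. The groups were far apart, at 43.5 ± 3.60 against 2.04 ± 0.478 CPM (mean ± SD, n = 3), or -4.41 ± 0.21 on the log2 scale (SE, adjusted p = 1.1e-05). *Npas2*, the partner that can replace CLOCK, was 22.4, 17.7, and 17.3 CPM at ZT 0 and 0, 0.0576, and 0 CPM at ZT 8. These were 985 counts at ZT 0 and 1 count at ZT 8, a ratio of 977 with an exact 95% interval of 175 to 38600 that covers counting error only (adjusted p = 1.2e-05). At ZT 4, *Npas2* was still at 2.0 ± 0.411 CPM (n = 3). *Clock* itself was 76.8, 92.6, and 95.5 CPM at ZT 0 and 40.1, 38.7, and 56.5 CPM at ZT 8. Its change was the smallest of the 3, at -0.96 ± 0.19 on the log2 scale (adjusted p = 0.036), and it missed the threshold without the second (0.13) or the third ZT 0 mouse (0.15) and without the first (0.15) or the second ZT 8 mouse (0.070).

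**Figure D2:**
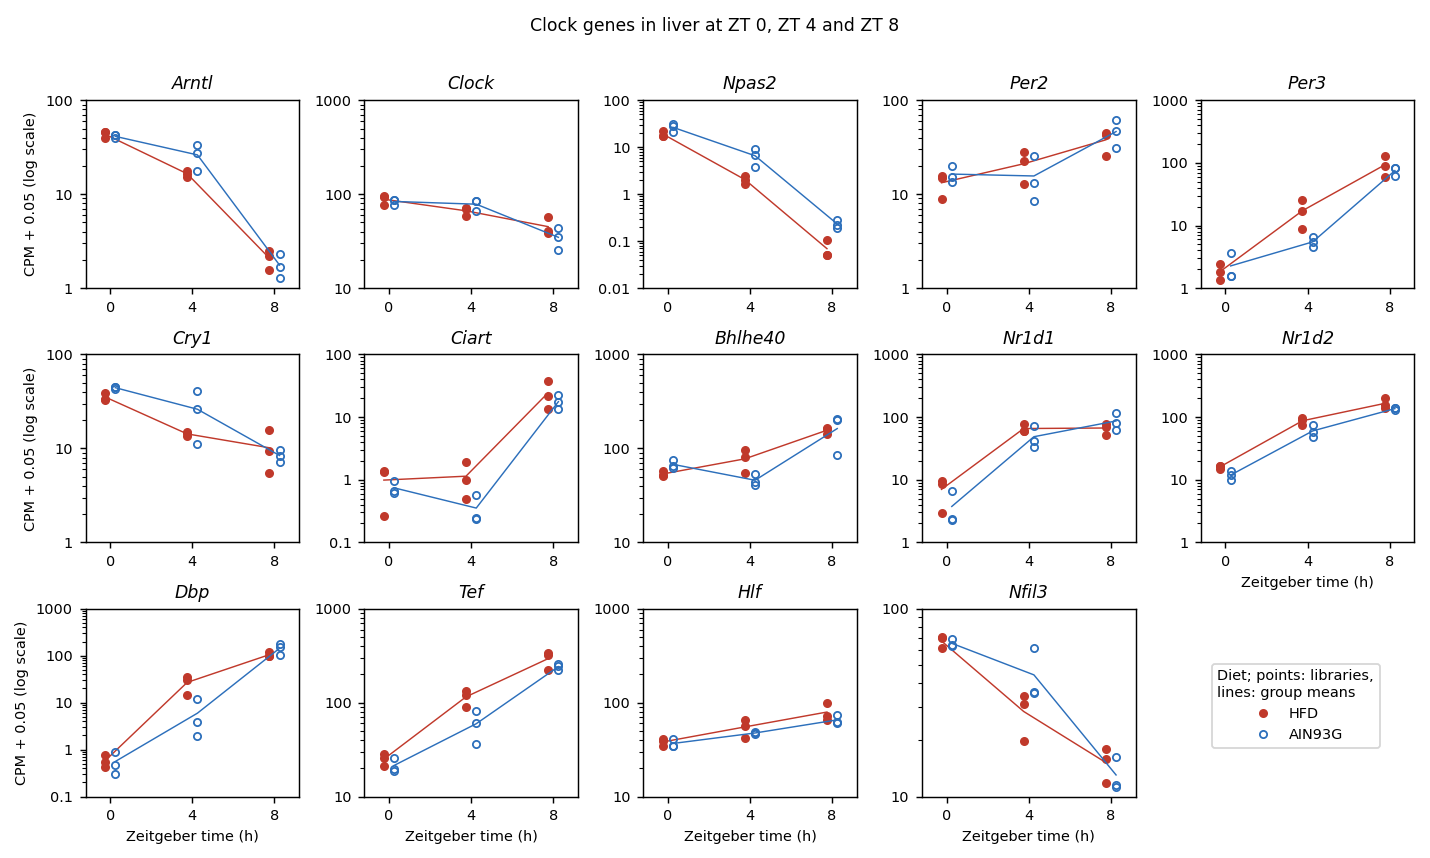
CPM + 0.05 on a log scale (vertical axis) at ZT 0, ZT 4, and ZT 8 for the 14 clock list members that passed the test on the HFD. Filled points are HFD libraries, open points AIN93G libraries, and lines join group means. *Dbp* rose from a mean of 0.526 CPM at ZT 0 to 105 CPM at ZT 8, and *Arntl* fell from 43.5 to 2.04 CPM.

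Of the 7 tested members of the repressor list, which holds the period and cryptochrome genes with *Ciart* and the BHLHE40 and BHLHE41 genes, 4 rose and 1 fell, with a list median log2 fold change of 1.53. *Per3* (chr4:151003652-151044665), a period gene, was 2.33, 1.78, and 1.29 CPM at ZT 0 and 88.6, 59.2, and 130 CPM at ZT 8. It thus rose 51.9-fold, a log2 fold change of 5.70 ± 0.36 (adjusted p = 7.1e-05). *Ciart* (chr3:95878503-95882251), which encodes an inhibitor of CLOCK and BMAL1, was 1.29, 1.30, and 0.215 CPM at ZT 0 and 38.1, 13.5, and 21.6 CPM at ZT 8. The lowest ZT 8 mouse was above the highest ZT 0 mouse, and the log2 fold change was 4.73 ± 0.56 (adjusted p = 0.0038). At ZT 4, *Ciart* was still at 1.09 ± 0.724 CPM (n = 3), near its ZT 0 mean of 0.936 ± 0.624 CPM, while *Per3* had reached 17.2 ± 8.62 CPM.

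*Bhlhe40*, which encodes a repressor that binds E-boxes, was 50.3, 52.0, and 57.8 CPM at ZT 0 and 161, 141, and 167 CPM at ZT 8. Both groups were tight, and the log2 fold change was 1.55 ± 0.15 (adjusted p = 0.0011). *Per2* was 14.9, 15.7, and 8.92 CPM at ZT 0 and 43.1, 25.2, and 45.3 CPM at ZT 8, a log2 fold change of 1.53 ± 0.28 (adjusted p = 0.030). The second ZT 8 mouse was the lowest of its group for *Per2*, *Per3*, and *Ciart*. *Cry1* moved the other way: this cryptochrome gene was 33.9, 32.6, and 39.3 CPM at ZT 0 and 15.6, 5.42, and 9.34 CPM at ZT 8, a log2 fold change of -1.80 ± 0.32 (adjusted p = 0.027). Without 1 mouse, *Per2* missed the threshold 4 times of 6 (the second and the third ZT 0 mouse, the first and the third ZT 8 mouse, adjusted p = 0.068 to 0.11) and *Cry1* 3 times (the second and the third ZT 0 mouse and the third ZT 8 mouse, 0.068 to 0.11). *Per1* was 35.8, 18.5, and 21.3 CPM at ZT 0 and 49.1, 41.6, and 51.7 CPM at ZT 8. Its groups did not overlap either, but at 0.92 ± 0.24 on the log2 scale it did not pass (adjusted p = 0.11; 0.014 without the first ZT 0 mouse), and neither did *Cry2*, at 0.49 ± 0.14 (adjusted p = 0.14). *Bhlhe41* was below the minimum mean count and was not tested.

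Both REV-ERB genes rose, and no other member passed, in a list of 4 tested REV-ERB and ROR genes with a median log2 fold change of 1.81. *Nr1d2* (chr14:18204054-18239127) was 16.7, 16.7, and 14.9 CPM at ZT 0 and 154, 140, and 202 CPM at ZT 8, a log2 fold change of 3.36 ± 0.19 (adjusted p = 3.5e-05). *Nr1d1* (chr11:98767932-98775333) was 9.64, 8.35, and 2.90 CPM at ZT 0 and 51.5, 78.8, and 70.4 CPM at ZT 8, a log2 fold change of 3.27 ± 0.38 (adjusted p = 0.0033). At ZT 4, *Nr1d1* was at 65.6 ± 10.1 CPM against 66.9 ± 14 CPM at ZT 8, and *Nr1d2* at 87.4 ± 11.2 CPM against 165 ± 32.5 CPM (n = 3), a contrast that was not tested. *Nr1d1* overlaps *Thra* on the other strand by 1075 bases, and *Thra*, with a mean of 13.1 CPM, did not pass. *Rora*, which encodes a competing activator, had overlapping groups and a log2 fold change of -0.22 ± 0.18 (adjusted p = 0.61).

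All 4 genes of the D-box list passed, 3 upward and 1 downward. *Dbp* (chr7:45705088-45710203) had the largest rise of all genes named here: it was 0.491, 0.711, and 0.376 CPM at ZT 0 and 96.5, 119, and 99.2 CPM at ZT 8. The log2 fold change was 7.63 ± 0.24 (adjusted p = 7.9e-07), the lowest adjusted p of the comparison. *Tef* (chr15:81802421-81826863) was 25.9, 28, and 21.1 CPM at ZT 0 and 334, 224, and 325 CPM at ZT 8, an 11.8-fold rise (log2 fold change 3.56 ± 0.22, adjusted p = 5.9e-05). The third activator, *Hlf*, changed far less, from 38.8, 40.5, and 34.8 CPM at ZT 0 to 99.7, 65.7, and 72.6 CPM at ZT 8 (log2 fold change 1.07 ± 0.18, adjusted p = 0.024). *Hlf* missed the threshold without any 1 ZT 0 mouse and without the first ZT 8 mouse (adjusted p = 0.057 to 0.11). *Nfil3*, the repressor, was 70.2, 61.8, and 69.7 CPM at ZT 0 and 11.7, 15.8, and 17.9 CPM at ZT 8, a log2 fold change of -2.15 ± 0.18 (adjusted p = 0.00054). *Dbp* overlaps *Sphk2* on the other strand by 737 bases.

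Of 20 genes known as outputs of the clock, 4 rose and 6 fell, with a median log2 fold change of 0.17. Those that rose were *Usp2*, *Wee1*, *Gys2*, and *Alas1*. *Gys2* and *Alas1* are counted again below, in the glycogen list and the P450 list. *Usp2*, which encodes a deubiquitinase, was 3.81, 2.31, and 1.56 CPM at ZT 0 and 62.2, 20.1, and 48.3 CPM at ZT 8 (log2 fold change 4.10 ± 0.46, adjusted p = 0.0031). *Wee1*, which encodes a kinase that delays mitosis, was 3.01, 1.18, and 2.74 CPM at ZT 0 and 22.9, 9.45, and 19.6 CPM at ZT 8 (2.91 ± 0.42, adjusted p = 0.0098). The lowest ZT 8 value of each was again that of the second mouse, as for *Per2*, *Per3*, *Ciart*, *Bhlhe40*, *Nr1d2*, *Tef*, and *Hlf*. For *Dbp* (119 CPM) and *Nr1d1* (78.8 CPM), which also rose, the second mouse had the highest ZT 8 value. *Cry1*, which fell, was lowest in that mouse. *Cdkn1a*, which encodes the cell cycle inhibitor p21, was 36.1, 26.9, and 46.6 CPM at ZT 0 and 6.71, 3.63, and 1.58 CPM at ZT 8 (-3.21 ± 0.43, adjusted p = 0.0063). *Ppard*, a nuclear receptor for fatty acids, was 70.5, 48.1, and 45.0 CPM at ZT 0 and 8.67, 6.97, and 9.01 CPM at ZT 8 (-2.72 ± 0.22, adjusted p = 0.00037). Both had made most of their fall by ZT 4, at 6.26 ± 3.76 and 9.43 ± 1.16 CPM (n = 3). *Slc45a3*, *St5*, *Leo1*, and the vasopressin receptor gene *Avpr1a* fell by 2.07, 1.47, 1.42, and 1.25 on the log2 scale. *Avpr1a* missed the threshold without the second (adjusted p = 0.060) or the third ZT 0 mouse (0.067). *Nampt*, the rate-limiting enzyme of NAD salvage, and *Por*, the electron donor of P450 enzymes, did not pass (log2 fold changes 0.84 ± 0.21 and 1.31 ± 0.28, adjusted p = 0.093 and 0.052), but both did without the second ZT 8 mouse (0.031 and 0.038). *Por* passed in 8 of 17 fits and *Nampt* in 4, DESeq2 among them for both.

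Genes outside the clock lists were also among the largest changes. *Upp2*, a uridine phosphorylase gene, was 181, 91.9, and 47.5 CPM at ZT 0 and 1272, 877, and 1169 CPM at ZT 8 (log2 fold change 3.38 ± 0.44, adjusted p = 0.0056). *Slc2a5*, which encodes a fructose transporter, was 1.72, 2.07, and 0.591 CPM at ZT 0 and 6.77, 10.03, and 8.16 CPM at ZT 8 (2.52 ± 0.41, adjusted p = 0.019). Both had groups that did not overlap, with the third ZT 0 mouse lowest, and *Slc2a5* missed the threshold without the third ZT 8 mouse (adjusted p = 0.061). *Loxl4*, a lysyl oxidase gene, was 57.9, 52.0, and 51.6 CPM at ZT 0 and 1.41, 2.36, and 1.86 CPM at ZT 8, a 28.4-fold fall (-4.83 ± 0.20, adjusted p = 6.1e-06). *Tubb2a*, a beta-tubulin gene, was 212, 133, and 177 CPM at ZT 0 and 25.3, 19.8, and 18.6 CPM at ZT 8 (-3.03 ± 0.22, adjusted p = 0.00019). *Chka*, which encodes choline kinase, fell as evenly, from 171, 149, and 185 CPM at ZT 0 to 30.6, 21, and 21 CPM at ZT 8 (-2.80 ± 0.20, adjusted p = 0.00019).

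The remaining large falls were less even among mice. *Clic3*, a chloride intracellular channel gene, was 23.6, 10.8, and 4.94 CPM at ZT 0 and 0.615, 0.749, and 0.676 CPM at ZT 8 (-4.25 ± 0.57, adjusted p = 0.0069). It shares 1939 bases with *Paxx* on the other strand, which also fell (-2.25 ± 0.36, adjusted p = 0.016), and reads of the pair may not be told apart. *Spon2*, which encodes an extracellular matrix protein, was 12.5, 26.0, and 47.5 CPM at ZT 0 and 3.26, 4.90, and 1.75 CPM at ZT 8 (-3.12 ± 0.50, adjusted p = 0.017). *Fam222a* had the smallest change of the falling genes named for their size, from 8.17 ± 4.24 to 1.54 ± 0.725 CPM (n = 3, -2.40 ± 0.48, adjusted p = 0.038). Without the first or the third ZT 8 mouse, the adjusted p was 0.091 and 0.067 for *Spon2*, 0.087 and 0.069 for *Paxx*, and 0.13 and 0.12 for *Fam222a*, which also missed the threshold without the first (0.065) or the third ZT 0 mouse (0.16).

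In the metabolic lists, a count of 1 or 2 calls describes the genes called and not the list, since 0.678% of all genes tested rose and 1.12% fell. Among bile acid genes, 1 of 15 tested synthesis genes passed, and the list median log2 fold change was -0.0028. That gene was *Cyp7a1* (chr4:6265612-6275633), the rate-limiting enzyme of bile acid synthesis, at 26.8, 64.3, and 37.3 CPM at ZT 0 and 89.6, 233, and 271 CPM at ZT 8. The groups were apart but wide, and the log2 fold change was 2.21 ± 0.42 (adjusted p = 0.034). *Cyp7a1* missed the threshold without the first or the third ZT 0 mouse (adjusted p = 0.075 and 0.15) and without the second or the third ZT 8 mouse (0.060 and 0.098). At ZT 4 the 3 HFD mice were at 109 ± 123 CPM. *Nr0b2*, which encodes SHP, a repressor of *Cyp7a1*, was 47.3, 24.2, and 26.3 CPM at ZT 0 and 8.18, 9.11, and 9.18 CPM at ZT 8 (-1.88 ± 0.26, adjusted p = 0.0075). Its fall came after ZT 4, where it was at 36.3 ± 17.1 CPM (n = 3). *Abcg5*, which encodes a subunit of the sterol exporter, rose from 107 ± 9.42 to 174 ± 2.14 CPM (n = 3, 0.70 ± 0.14, adjusted p = 0.037), and its partner *Abcg8*, which overlaps it on the other strand by 6710 bases, had a log2 fold change of 0.60 ± 0.15 and did not pass (adjusted p = 0.083). *Abcg5* missed the threshold whichever mouse was left out (0.052 to 0.14). The other 14 of 16 tested regulators and transporters did not pass, and the list median was 0.21. *Cyp8b1*, the 12-alpha-hydroxylase, had overlapping groups (-0.89 ± 0.34, adjusted p = 0.26). *Hsd3b7* was low in all mice, at 3.83 ± 1.82 and 0.637 ± 0.452 CPM (n = 3, adjusted p = 0.053; 0.034 without the second ZT 8 mouse).

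Of 28 tested genes of cholesterol synthesis and LDL uptake, none rose and 2 fell, with a median of -0.23. *Insig2*, which encodes a protein that holds SREBP in the endoplasmic reticulum, was 490, 568, and 420 CPM at ZT 0 and 265, 168, and 125 CPM at ZT 8 (-1.40 ± 0.27, adjusted p = 0.033). *Mvd*, a mevalonate pathway enzyme gene, was 46.4, 13.1, and 19.6 CPM at ZT 0 and 3.38, 8.24, and 4.73 CPM at ZT 8 (-2.27 ± 0.48, adjusted p = 0.049). The first ZT 0 mouse was highest for *Mvd* and also for *Fdps*, a further enzyme of the pathway, at 13, 2.96, and 3.55 CPM at ZT 0 and 1.60, 1.67, and 1.86 CPM at ZT 8 (adjusted p = 0.14). *Srebf2*, the transcription factor of the pathway, was at 82.2 ± 12.1 and 56.6 ± 1.49 CPM (n = 3, adjusted p = 0.13). Without 1 mouse, *Mvd* missed the threshold 4 times of 6 (the first and the third mouse of each time, adjusted p = 0.074 to 0.17) and *Insig2* 5 times (all but the first ZT 8 mouse, 0.060 to 0.11).

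None of 30 tested genes of fatty acid and triacylglycerol synthesis passed, and the median was 0.12. Levels of lipogenic genes varied widely among mice. *Fasn*, fatty acid synthase, was 752, 267, and 295 CPM at ZT 0 and 388, 289, and 729 CPM at ZT 8 (0.10 ± 0.44, adjusted p = 0.94). *Scd1*, stearoyl-CoA desaturase, was 2037, 912, and 2193 CPM at ZT 0 and 2438, 1379, and 3778 CPM at ZT 8 (0.57 ± 0.40, adjusted p = 0.55). Groups of *Acaca* (0.33 ± 0.30), *Fads1* (0.20 ± 0.21), and *Fads2* (0.46 ± 0.20) overlapped as well, with adjusted p-values of 0.66, 0.70, and 0.33. *Srebf1*, the transcription factor of lipogenesis, was 345, 198, and 236 CPM at ZT 0 and 478, 415, and 670 CPM at ZT 8. Its groups did not overlap, but it did not pass (1.01 ± 0.25, adjusted p = 0.095), and neither did *Thrsp*, a gene of the lipogenic program (2.27 ± 0.57, adjusted p = 0.094). Both passed without the first ZT 0 mouse (adjusted p = 0.043 and 0.0076).

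Of 39 tested genes of fatty acid oxidation and ketogenesis, 1 fell (2.56%, near the 1.12% of all genes tested), and the median was 0.022. *Pdk4*, the kinase that shuts off pyruvate dehydrogenase, was 18.6, 20.7, and 46.8 CPM at ZT 0 and 6.34, 3.52, and 5.29 CPM at ZT 8 (-2.50 ± 0.38, adjusted p = 0.013; 0.061 without the third ZT 8 mouse). Of 30 tested genes of fatty acid uptake, lipid droplets, and lipases, 1 rose (3.33%, against 0.678% of all genes tested). This gene, *Lipg*, endothelial lipase, was at 13.5 ± 1.95 and 25.8 ± 0.250 CPM (n = 3, 0.93 ± 0.16, adjusted p = 0.022). It missed the threshold without the first or the second ZT 0 mouse and without the first or the third ZT 8 mouse (adjusted p = 0.056 to 0.10).

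Of 24 tested genes of gluconeogenesis and glycogen, 2 rose and 1 fell, with a median of 0.19. *Gys2*, liver glycogen synthase, was 88.7, 109, and 98.8 CPM at ZT 0 and 245, 299, and 269 CPM at ZT 8 (1.46 ± 0.15, adjusted p = 0.0020). *Slc2a2*, the glucose transporter GLUT2, was 239, 215, and 187 CPM at ZT 0 and 451, 451, and 498 CPM at ZT 8 (1.13 ± 0.16, adjusted p = 0.0075). Both rises were even among mice. Among the fits without 1 mouse, *Slc2a2* missed the threshold only in that without the second ZT 0 mouse (adjusted p = 0.053). It also missed it without the third mouse of both times and in a test against a 1.5-fold change. *Ppp1r3c*, a subunit that targets protein phosphatase 1 to glycogen, was 104, 122, and 125 CPM at ZT 0 and 44, 52.0, and 39.7 CPM at ZT 8 (-1.37 ± 0.16, adjusted p = 0.0033). *G6pc*, glucose-6-phosphatase, was at 746 ± 56.2 and 449 ± 125 CPM (n = 3) and did not pass (adjusted p = 0.14). None of 20 tested genes of insulin and nutrient signalling passed, *Irs2* (-1.39 ± 0.33, adjusted p = 0.075) and *Igfbp1* (-1.76 ± 0.59, adjusted p = 0.20) among them, and the list median was 0.15. Without the second ZT 8 mouse, both had an adjusted p of 0.027, and *Irs2* had 0.042 without the first ZT 0 mouse.

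Of 44 tested genes of the urea cycle and amino acid catabolism, 3 rose and 1 fell, with a median of 0.27. All 3 that rose encode amino acid transporters. *Slc7a2*, a cationic amino acid transporter gene, was 640, 479, and 439 CPM at ZT 0 and 1017, 1040, and 1968 CPM at ZT 8 (1.38 ± 0.28, adjusted p = 0.047). *Slc38a3*, a glutamine transporter gene, was 889, 830, and 573 CPM at ZT 0 and 1461, 1988, and 1866 CPM at ZT 8 (1.22 ± 0.21, adjusted p = 0.024). *Slc38a4*, which encodes a neutral amino acid transporter of hepatocytes, rose as well, from 873 ± 64.0 to 1740 ± 348 CPM (n = 3, 1.00 ± 0.19, adjusted p = 0.033). *Gldc*, a subunit of the glycine cleavage system, fell from 300 ± 69.9 to 140 ± 31.9 CPM (n = 3, -1.10 ± 0.22, adjusted p = 0.043). None of the 4 held without the second or the third ZT 0 mouse or without the third ZT 8 mouse (adjusted p = 0.055 to 0.19), and all but *Slc38a3* missed the threshold without the first ZT 8 mouse too (0.078 to 0.15). *Slc38a4* and *Gldc* also did so without the first ZT 0 mouse (0.051 and 0.097). *Slc7a2* also missed the threshold with library size scaling, and it passed in 10 of 17 fits.

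**Figure D3:**
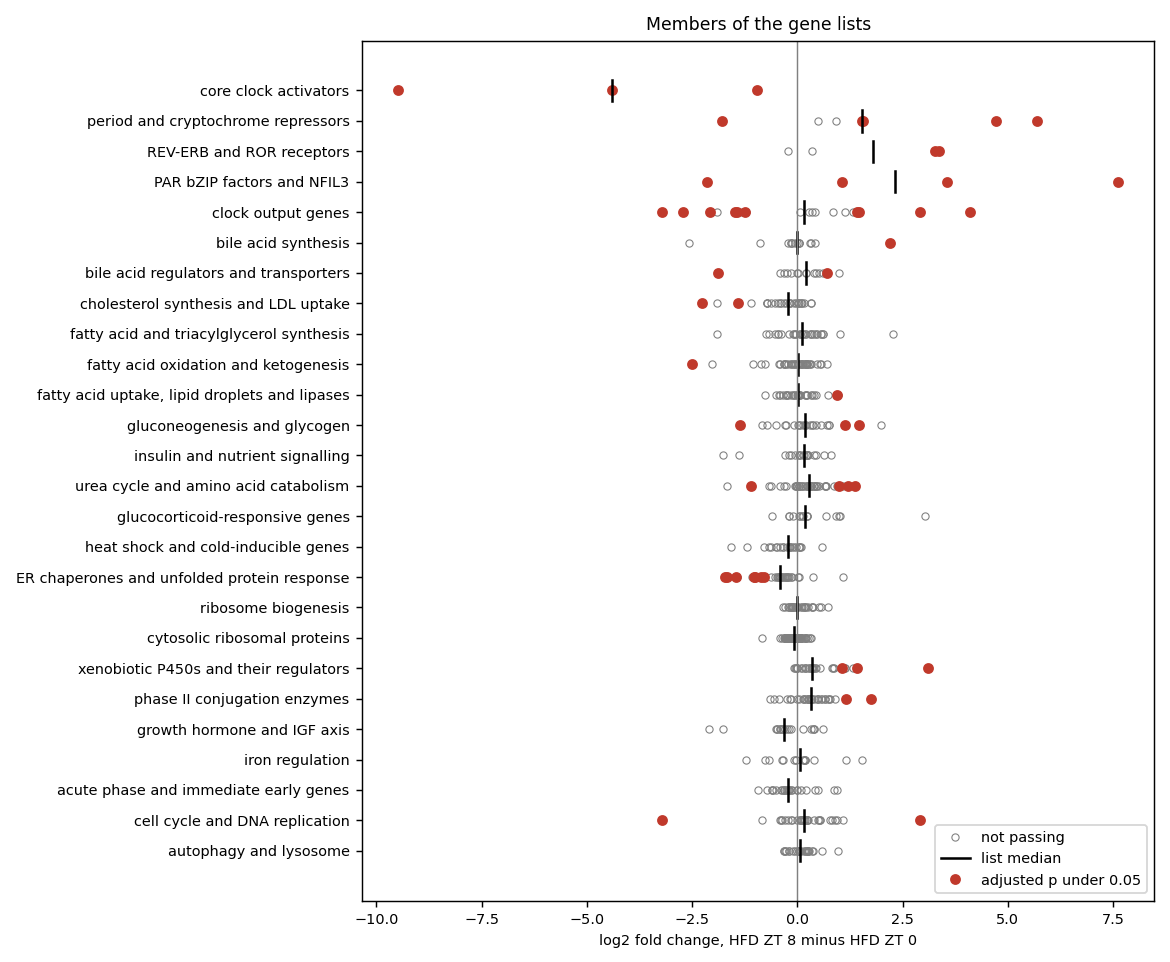
Log2 fold change from ZT 0 to ZT 8 on the HFD (horizontal axis) of each tested member of 26 gene lists (vertical axis), with members that passed the test as filled points and the list median as a black line. Medians of the 4 clock lists lie between -4.41 and 2.31, and those of the other lists between -0.42 and 0.34.

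In the list of chaperones of the endoplasmic reticulum and the unfolded protein response, 7 of 34 tested genes fell and none rose, against 1.12% of all genes that fell. Its median log2 fold change was -0.42, and 17 members had an unadjusted p under 0.05. *Syvn1*, a ubiquitin ligase that clears misfolded proteins, was 112, 121, and 155 CPM at ZT 0 and 57.4, 40.7, and 43.0 CPM at ZT 8 (-1.46 ± 0.19, adjusted p = 0.0063). *Hyou1*, a chaperone gene, was 230, 187, and 307 CPM at ZT 0 and 108, 44.3, and 65.5 CPM at ZT 8 (-1.73 ± 0.32, adjusted p = 0.031). *Manf*, which encodes a secreted protein of stressed cells, was 115, 112, and 117 CPM at ZT 0 and 60.5, 25.5, and 21.2 CPM at ZT 8 (-1.68 ± 0.35, adjusted p = 0.047). For *Manf* and *Hyou1*, the first ZT 8 mouse was the highest of its group. *Sdf2l1* (-1.01 ± 0.17), the stress sensor kinase *Eif2ak3* (-1.04 ± 0.21), the disulfide isomerase *Pdia4* (-0.87 ± 0.17), and the signal peptidase subunit *Spcs2* (-0.78 ± 0.16) fell with adjusted p-values of 0.021, 0.046, 0.041, and 0.040. *Hspa5*, the most studied chaperone of this compartment, was 1088, 1132, and 1337 CPM at ZT 0 and 824, 354, and 489 CPM at ZT 8 and did not pass (-1.09 ± 0.29, adjusted p = 0.11), as was so for *Creld2* (adjusted p = 0.13) and *Dnajb9* (adjusted p = 0.14). *Hspa5* and *Creld2* passed without the first ZT 8 mouse (both 0.033). Of the 7 that fell, none passed without both Y48 libraries (0.0965 for *Syvn1*). *Syvn1* passed whichever single mouse was left out, *Hyou1* missed the threshold without the third mouse of either time (0.11 and 0.10), and *Sdf2l1* without the second or the third ZT 0 mouse or the first ZT 8 mouse (0.078 to 0.10). *Pdia4* missed it in 4 of 6 such fits (all but those without the first ZT 0 or the third ZT 8 mouse, 0.078 to 0.18), *Manf* in 5 (all but that without the first ZT 8 mouse, 0.080 to 0.15), and *Eif2ak3* and *Spcs2* in all 6 (0.062 to 0.18). On AIN93G, 4 of the list fell and none rose.

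Of 30 tested xenobiotic P450 genes and their regulators, 3 rose and none fell, with a median of 0.34, and of 34 tested phase II conjugation enzymes 2 rose and none fell, with a median of 0.32. *Cyp2a5*, which encodes a coumarin hydroxylase, was 180, 73.7, and 62.3 CPM at ZT 0 and 727, 1052, and 922 CPM at ZT 8 (3.10 ± 0.39, adjusted p = 0.0052). Near-identical *Cyp2a* genes may share its reads. *Alas1*, the rate-limiting enzyme of heme synthesis, was 149, 249, and 279 CPM at ZT 0 and 539, 449, and 823 CPM at ZT 8 (1.43 ± 0.29, adjusted p = 0.043). *Cyp1a2* rose from 212 ± 45.8 to 441 ± 34.5 CPM (n = 3, 1.06 ± 0.19, adjusted p = 0.027), and *Cyp2e1*, which metabolizes ethanol, was at 4794 ± 992 and 8457 ± 1022 CPM without passing (adjusted p = 0.084). *Sult1c2*, a sulfotransferase gene, rose from 3.57 ± 0.644 to 12.0 ± 3.22 CPM (n = 3, 1.74 ± 0.26, adjusted p = 0.012). *Ugt1a6a*, a glucuronosyltransferase gene that shares exons with the other *Ugt1a* genes, rose from 8.60 ± 0.860 to 19.0 ± 1.17 CPM (n = 3, 1.15 ± 0.17, adjusted p = 0.011). *Sult1c2* and *Ugt1a6a* missed the threshold without the second or the third ZT 0 mouse (adjusted p = 0.058 to 0.063), *Cyp1a2* also without the first or the third ZT 8 mouse (0.069 to 0.085 over the 4), and *Alas1* without any mouse but the second of ZT 8 (0.079 to 0.12).

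No member passed in the lists of cytosolic ribosomal proteins (78 tested, median -0.089), ribosome biogenesis (30 tested, -0.016), heat shock and cold-inducible genes (22 tested, -0.22), glucocorticoid-responsive genes (16 tested, 0.17), the growth hormone and IGF axis (20 tested, -0.32), iron regulation (16 tested, 0.059), acute phase and immediate early genes (26 tested, -0.22), or autophagy and lysosome (26 tested, 0.060). The cell cycle list had 33 tested members, among which *Wee1* and *Cdkn1a* above were the only ones that passed. *Mt1*, a metallothionein gene of the glucocorticoid list, was 37.7, 13.1, and 23.4 CPM at ZT 0 and 347, 230, and 32.3 CPM at ZT 8. One ZT 8 mouse thus overlapped the ZT 0 group, and the gene did not pass (3.03 ± 0.72, adjusted p = 0.077), but it did without that mouse, the third (0.0088).

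**Figure D4:**
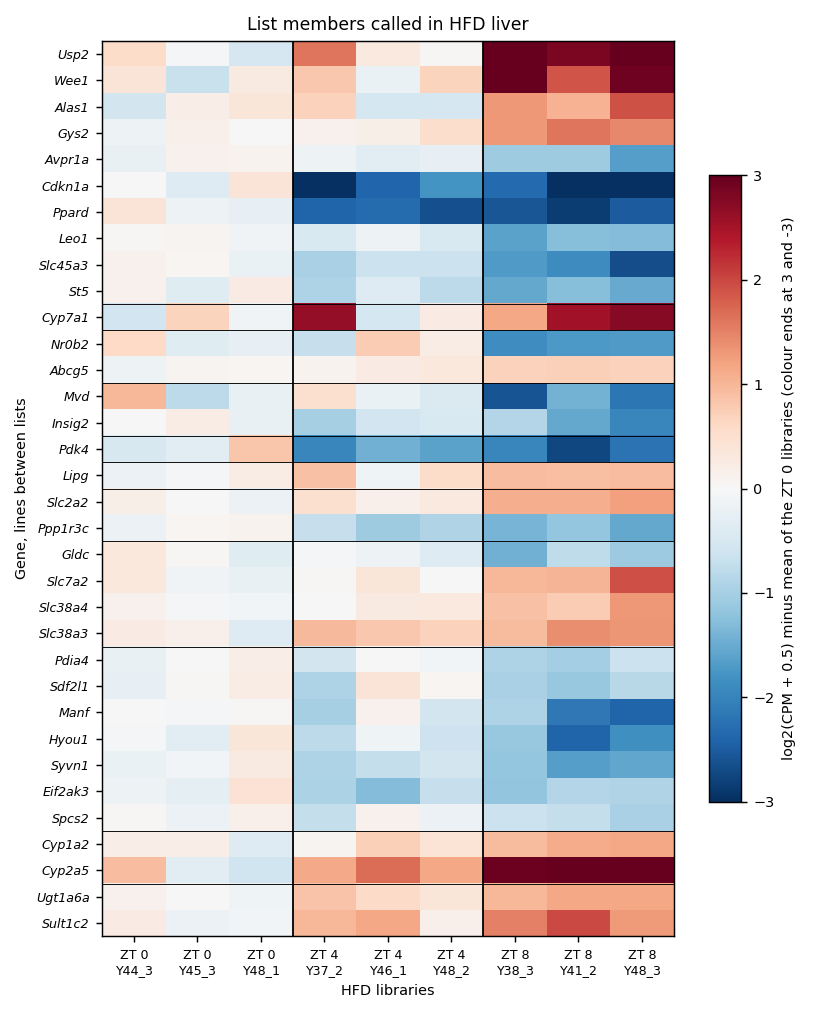
Log2(CPM + 0.5) relative to the mean of the 3 ZT 0 libraries (colour) for the 34 members of lists other than the clock lists that passed the test (vertical axis) in the HFD libraries at ZT 0, ZT 4, and ZT 8 (horizontal axis). *Ppard* and *Cdkn1a* are already low in the ZT 4 libraries, whereas *Usp2*, *Wee1*, and *Nr0b2* are nearer to their ZT 0 than to their ZT 8 level there.

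The ZT 4 libraries of the same diet entered none of these tests. The ZT 4 mean lay between the ZT 0 and ZT 8 means for 75 of the 82 genes that rose and 128 of the 136 that fell. By ZT 4, the median gene had made 38.2% of its log2 rise or 34.3% of its log2 fall, with 0.1 CPM added to each mean. The ZT 4 mean was past the ZT 8 mean for 3 genes that fell and for no gene that rose. It was on the other side of the ZT 0 mean for 7 genes that rose and 5 that fell. Since the ZT 0 and ZT 8 values chose these genes, the counts are given without a test.

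To ask whether the HFD changes were also found on the control diet, the same comparison was made in 6 AIN93G libraries, which shared no mouse with those above. There 157 of 12038 genes rose and 184 fell, which is 1.30% and 1.53%, or 2.83% in either direction. The AIN93G count of 341 was 175, 129, and 118 without the first, the second, and the third ZT 0 mouse. The skeletal muscle markers summed to 8.68, 2.45, and 3.40 CPM at ZT 0 and 10.2, 1590, and 6.24 CPM at ZT 8 on AIN93G, so that the second ZT 8 library stood apart. Without it, 241 genes were called on AIN93G, 115 of them also on the HFD in the same direction. Of the 218 genes called on the HFD, 132 passed on AIN93G in the same direction, which is 60.6% of the HFD calls and 38.7% of the AIN93G calls. These were 46 genes that rose and 86 that fell. None passed in the opposite direction, and the sign was the same for 82 of 82 genes that rose and 134 of 136 that fell. Among the clock genes, *Arntl* had a log2 fold change of -4.59 ± 0.21 on AIN93G against -4.41 ± 0.21 on the HFD, *Dbp* 8.10 ± 0.38 against 7.63 ± 0.24, and *Nr1d2* 3.54 ± 0.14 against 3.36 ± 0.19. *Per3* had 5.07 ± 0.34 on AIN93G against 5.70 ± 0.36, *Tef* 3.50 ± 0.16 against 3.56 ± 0.22, and *Loxl4* -4.62 ± 0.26 against -4.83 ± 0.20. The difference between the diets did not pass for any of these. Among the 14 clock list members called on the HFD, *Npas2* and *Nr1d1* had the lowest unadjusted p of that difference. *Npas2* had -7.11 ± 0.28 on AIN93G against the fitted -9.48 ± 0.47 (unadjusted p = 0.0209), and *Nr1d1* had 4.56 ± 0.44 against 3.27 ± 0.38 (unadjusted p = 0.0543). Neither passed after adjustment in that fit, which left out genes with low counts. Without that filter, *Nr1d1* passed (adjusted p = 0.000298) and *Npas2* did not (0.825). *Per1*, a clock list member not called on the HFD, passed there too (0.000662). The SE of the *Nr1d1* difference was 0.262 without the filter and 0.611 with it.

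**Figure D5:**
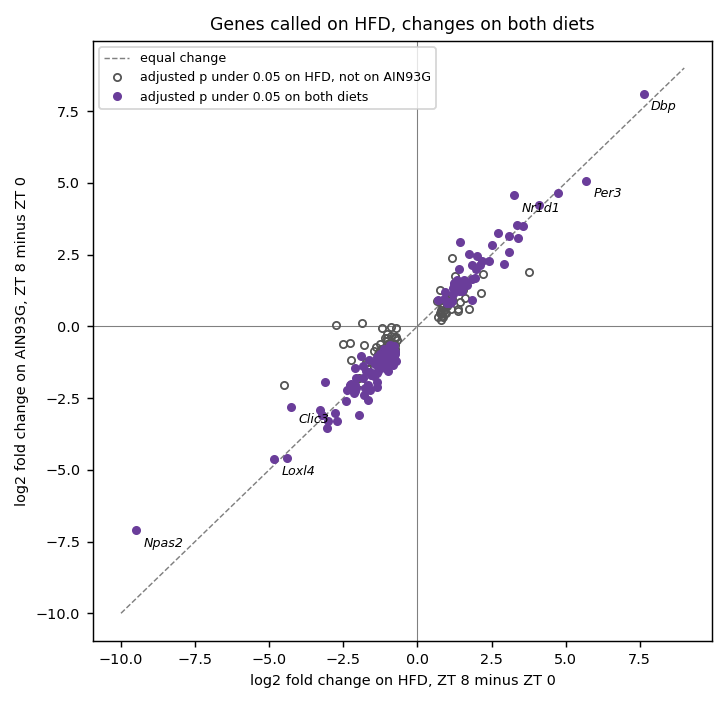
Log2 fold change from ZT 0 to ZT 8 on AIN93G (vertical axis) against that on the HFD (horizontal axis) for the 218 genes called on the HFD. The broken line marks equal change, and filled points are the 132 genes that also passed on AIN93G.

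The difference between the diets in the change from ZT 0 to ZT 8 was tested with the interaction of diet and time over the 12 libraries. It was called for 0 of 12070 genes (0% of genes tested, lowest adjusted p = 0.944) by edgeR, by DESeq2, and by limma-voom, and 490 genes had an unadjusted p under 0.05 with edgeR. Without the filter on low counts, edgeR called 156 genes, 13 of them under the mean count of 25. *Klhl25*, which encodes a ubiquitin ligase adaptor, had the lowest unadjusted p, at 0.00045: it was 24.9, 29.6, and 26.2 CPM at ZT 0 and 14.8, 13.7, and 15.3 CPM at ZT 8 on the HFD. The log2 fold changes were -0.88 ± 0.15 on the HFD and -0.04 ± 0.13 on AIN93G. *Vps37b*, an ESCRT subunit gene, had -1.19 ± 0.23 and -0.05 ± 0.17 (unadjusted p = 0.0010), and *Lgalsl* had -1.65 ± 0.15 and -2.55 ± 0.19 (unadjusted p = 0.0025). *Igfbp2*, which encodes an IGF-binding protein, had -0.29 ± 0.24 and 0.86 ± 0.11 (unadjusted p = 0.0012), and *Slc16a5*, a monocarboxylate transporter gene, had -0.28 ± 0.29 and 1.66 ± 0.28 (unadjusted p = 0.00094). *Nr0b2* fell on the HFD by 1.88 and had a log2 fold change of 0.11 ± 0.46 on AIN93G (unadjusted p = 0.0052). The interaction of *Igfbp2* passed without the first HFD ZT 0 mouse, the 1 gene to do so in that fit. Without the filter on low counts, the differences of *Slc16a5* (adjusted p = 1.61e-09), *Igfbp2* (0.00147), *Nr0b2* (1.99e-11), and *Pdk4* (2.27e-09) passed, and those of *Lgalsl* (0.0704), *Vps37b* (0.101), and *Klhl25* (0.149) did not. With the filter and all 12 libraries, none of these differences passed after adjustment, so these calls depend on the filter. *Mvd* (3.14e-07), *Alas1* (3.41e-06), *Scd1* (2.28e-05), *Thrsp* (0.000294), and *Acaca* (0.00216) were among other named genes that passed without the filter. The SE of the *Pdk4* difference was 0.267 without the filter and 1.27 with it, and that of *Cyp7a1* 0.242 and 0.97. *Tef* had 0.246 and 0.258. Without the filter the SE was thus alike for genes that differed in SE with it. These calls are not read as differences between the diets. These tests do not show that the diets were alike: for *Cyp7a1*, the difference of 0.37 had an SE of 0.97, and for *Pdk4* the difference of -1.89 had an SE of 1.27.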

How the data were processed

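Liver RNA of 42 mice was sequenced, with 3 libraries per diet and time point, and sample records gave the diet and time of each. The authors deposited raw counts of reads per gene for 54532 genes, not normalized, made for them by a company from poly-A selected, paired-end libraries. The submitters' processing notes name fastp, STAR, HTSeq 0.6.1, and DESeq with build mm10. The strand setting and annotation release are not given in the sources used here, so overlapping genes on opposite strands may share reads (47 of the 218 called genes overlap a protein-coding gene on the other strand). No column of the table was left without a sample.

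Fits were made in R 4.3.3 with DESeq2 1.42.0, limma 3.58.1, and edgeR 4.0.16. CPM are counts scaled to TMM effective library sizes. Genes whose mean count reached 25 over the 6 libraries (12 for the interaction) entered edgeR's quasi-likelihood F-test, and those with an adjusted p (Benjamini-Hochberg) under 0.05 were called. Each adjusted p printed is edgeR's unless another tool is named, and fold changes are fitted values. Replicates were separate mice, and values are printed in the order of replicate number. Replicate pairs were checked with a chi-square test of their counts, whose value per degree of freedom was 27.5 to 56, so that no pair looked like repeats of 1 library. Total counts in the 42 libraries were 14592481 to 21368409, and for the 1 called gene with a group at or under 3 counts the ratio of counts is given with its exact binomial interval. The edgeR, DESeq2, and limma-voom fits with the main filter and scaling were tried on simulated data. Fits with other filters, library size scaling, further libraries, or libraries left out were not.

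Named genes are 12 that rose and 12 that fell, by size of change, among those that passed with non-overlapping groups, at least 5 CPM in the higher group, and no predicted name, with members of the gene lists, the 12 PCR genes of the study, and up to 5 genes per direction with the lowest interaction p. Results of some genes that this rule takes are not reported here. *Paxx*, *Thra*, and *Sphk2* were named after their values were seen because they overlap a named gene. Genes named only under the other observations were also chosen after their values were seen. Members and lists were chosen with earlier results of these data known. Alternatives were DESeq2, limma-voom, library size scaling, 3 other filters, a test against a 1.5-fold change, fits with further libraries, and leaving out libraries. Promoters came from RefSeq (GRCm38.p6). Of genes called, 56 of 82 higher and 105 of 136 lower had a promoter there, under 80%, so motif shares over them were void and are not given. The share over tested genes is given with its coverage, also under 80%.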

Additional observations from a re-analysis of the deposited data

How the results depend on the processing

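Of 218 genes called on the HFD (82 higher, 136 lower), 217 were among 602 called by DESeq2 (273 higher, 329 lower) and 198 among 205 called by limma-voom. Without a filter on low counts 876 were called (409 higher, 467 lower), 68 of them under the mean count of 25. A test against a 1.5-fold change called 62 (22 and 40), a fit with the ZT 4 libraries 337 (130 and 207), and a fit with the AIN93G libraries 452 (193 and 259). Leaving out both Y48 libraries, the third of each group, whose titles share a stem of unstated meaning, left 44 (17 and 27), 41 of them among the 218. Leaving out 1 library gave 79 to 263 calls, 31 to 127 higher and 48 to 136 lower. Library size scaling gave 30.5% higher among calls against 37.6%, with a median log2 fold change of -0.0661. The interaction had 156 calls without the filter, and 0 to 1 without 1 library (*Igfbp2*, without the first HFD ZT 0 mouse). AIN93G calls were 858 by DESeq2, 979 without the filter, 91 against a 1.5-fold change, and 118 to 444 without 1 library. The causes were not tested.

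Of the 24 genes with the largest changes, 15 passed in every one of up to 17 fits that tested them, as did 15 of the 48 called list members. *Clock*, *Per2*, and *Hlf* passed in 11 of 17, *Cry1* in 12, *Cyp7a1* in 9, and *Alas1*, *Eif2ak3*, and *Spcs2* in 8. With limma-voom, *Clic3* (adjusted p = 0.084), *Spon2* (0.054), *Fam222a* (0.0851), *Mvd* (0.0934), and *Eif2ak3* (0.0606) missed the threshold. Of 35 recomputed genes that did not pass, 23 passed in at least 1 other fit, 18 with DESeq2 and 22 without the filter, among them *Por* in 8 of 17 fits, *Irs2* in 6, and *Nampt* and *Srebf1* in 4. Of 61 calls that held whichever 1 library was left out, 24 were lost without both Y48 libraries, among them *Usp2* (0.0807), *Wee1* (0.144), *Cyp2a5* (0.0796), *St5* (0.093), *Nr0b2* (0.0917), *Ppp1r3c* (0.052), *Syvn1* (0.0965), *Serpina6* (0.0592), and *Cgn* (0.0662). The sign turned for *Fasn* without both Y48 libraries (-0.59), and in some fits without 1 library (-0.37 to 0.75, below 0 without the second or the third HFD ZT 0 mouse or the third HFD ZT 8 mouse), and for *Acaca* without both Y48 libraries (-0.028), and for *Thra* without the first HFD ZT 8 mouse (-0.48 to 0.021 without 1 library). No other gene recomputed under these settings changed sign. No paired analysis was possible because the replicate numbers only name the mice and, within a diet, the time points share only 1 title stem. With 3 mice a group, genes that did not pass are not shown to be unchanged.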

Other observations

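Of the 218 genes called on the HFD, 170 were in none of the functional lists, 58 of them higher and 112 lower at ZT 8. Of all 218, 29 passed under every setting tried, 9 higher and 20 lower. The genes described here were picked from both sets after their values were seen, and their values are a description. *Clpx*, which encodes the chaperone subunit of a mitochondrial protease, was 422, 531, and 438 CPM at ZT 0 and 115, 122, and 87.1 CPM at ZT 8, a log2 fold change of -2.10 ± 0.18 (adjusted p = 0.00054). *Slc30a10*, which encodes a manganese exporter, was 106, 105, and 114 CPM at ZT 0 and 32.9, 26.0, and 32.5 CPM at ZT 8 (-1.83 ± 0.16, adjusted p = 0.00054). Both groups of each gene were tight and apart. *Tjp3* (-1.61 ± 0.16, adjusted p = 0.0016), *Cldn1* (-1.58 ± 0.24, adjusted p = 0.012), and *Cgn* (-1.17 ± 0.15, adjusted p = 0.0052), which encode tight junction proteins, fell. Their lowest ZT 0 values were 50.7, 139, and 64.9 CPM and their highest ZT 8 values 20.5, 76.7, and 34.3 CPM. No list of tight junction genes was made, so nothing is said of that group. *Cldn1* missed the threshold without the third mouse of either time (adjusted p = 0.055 and 0.053).

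A pair of coenzyme Q genes moved apart. *Coq10b*, which encodes a coenzyme Q binding protein, rose from 15.1, 16.9, and 21.1 CPM at ZT 0 to 63.6, 57.9, and 70.4 CPM at ZT 8 (1.86 ± 0.17, adjusted p = 0.00090), with a ZT 4 mean of 17.1 ± 3.42 CPM (n = 3). *Coq8a*, which takes part in coenzyme Q synthesis, fell from 500 ± 69.9 to 230 ± 58.2 CPM (n = 3, -1.12 ± 0.21, adjusted p = 0.030), and missed the threshold without any mouse but the second of ZT 8 (0.063 to 0.11). *Serpina6*, which encodes the corticosteroid-binding globulin, was 253, 178, and 257 CPM at ZT 0 and 598, 752, and 744 CPM at ZT 8 (1.61 ± 0.20, adjusted p = 0.0045). On AIN93G, it did not pass (0.98 ± 0.40, adjusted p = 0.25). Its difference between the diets was not called with the filter on low counts or without it (0.612 ± 0.255, adjusted p = 0.757 without it). *Noct*, which encodes the phosphatase nocturnin, was 34.0, 15.1, and 13.8 CPM at ZT 0 and 115, 60.5, and 74.1 CPM at ZT 8 (1.99 ± 0.37, adjusted p = 0.031). *Uox*, urate oxidase, was 991, 958, and 1027 CPM at ZT 0 and 2007, 1873, and 2107 CPM at ZT 8 (1.01 ± 0.15, adjusted p = 0.013), and it overlaps *Dnase2b* on the other strand. Without 1 mouse, *Noct* missed the threshold 4 times of 6 (the second and the third ZT 0 mouse, the first and the third ZT 8 mouse, adjusted p = 0.070 to 0.12), and *Uox* did so without the second or the third ZT 0 mouse (0.078 and 0.055).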
